A study of Rattus norvegicus with 18 samples.

Results

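The siRNAs siAHR-2 and siAHR-5, of different sequence and against one transcript, were set directly against each other in MYC-expressing rat fibroblasts. The 6 libraries compared, 3 of siAHR-5 and 3 of siAHR-2, were taken by their labels out of the 18 RNA-seq libraries of the series, and 3 libraries of the control siRNA (siCtrl) were used only to place the differences. All 9 came from HO15.19 cells, a line of Rat1 fibroblasts without functional endogenous myc (myc-/-), which had been made to express human MYC stably by viral infection. By their labels, the 3 groups differed only in the siRNA, which was given at 40 nM, with cells collected at 48 h. The cells are a single established line with MYC under a viral vector, and nothing in the labels states that the 3 libraries of a group came from separate cultures, so p-values measure only the spread between these libraries. The sequences of the siRNAs are not given in the sources used here.

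AHR, the aryl hydrocarbon receptor, is a transcription factor of the bHLH-PAS family that waits in the cytoplasm in a complex with HSP90. When a ligand binds, it moves to the nucleus, pairs with ARNT and switches on genes of xenobiotic metabolism such as Cyp1b1, Aldh3a1 and Nqo1, together with its own repressor, Ahrr. An siRNA is loaded into an Argonaute protein and guides cleavage of the transcript it matches, while partial matches, above all of its seed to 3′ ends of other transcripts, can also lower those transcripts. Setting siRNAs of different sequence against each other asks which genes follow the sequence used when the target falls to a like level.

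Values are the deposited normalized log2 values of 13188 genes. A log2FC is a difference of group means on this scale, siAHR-5 minus siAHR-2 unless another order is stated, and came from limma, with Benjamini-Hochberg adjusted p-values over the whole table. A gene passed the cutoffs with a log2FC of at least 0.585 in size and an adjusted p of at most 0.01. The depth of the libraries is unknown, because the values hold no counts. Replicates lay close together, with a median SD per gene of 0.0373 with siAHR-2, 0.0544 with siAHR-5 and 0.0508 with siCtrl over 10724 genes. In a principal component analysis of the 9 libraries, the leading component held 57.3% of the variance and placed siAHR-5 (14.87 to 15.94) apart from siAHR-2 (-6.34 to -6.06) and siCtrl (-9.80 to -8.86). The next component, with 24.9%, placed siAHR-2 (9.16 to 9.70) apart from siCtrl (-8.33 to -8.02), with siAHR-5 between them. Replicate 2 of siAHR-5 stood apart from the other siAHR-5 libraries on a component with 5.29% of the variance, at 7.16 against -3.89 and -3.47, and results that rest on it are given with and without it.

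Fibroblast identity was checked first. Of 11 fibroblast markers, 10 had a mean above 5 in each of the groups, and Col1a2 was listed at 3.64 in all 3 groups. Ptprc (2.84 with siAHR-2 and 2.85 with siAHR-5), the pan-leukocyte marker, and the fat cell marker Adipoq (2.42 with each) were near the bottom of the scale, and 6 of 7 epithelial markers were below 5. The immune and adipocyte lists had different summed levels with the siRNAs, each through one member. The summed immune markers lay at 10.32 to 10.48 with siAHR-2 and 10.82 to 10.91 with siAHR-5, through Cd14. The summed adipocyte markers lay at 8.88 to 8.98 and 9.22 to 9.56, through Cebpa (log2FC 0.45, adjusted p = 0.0166). For skeletal muscle, endothelial, neural and glial, and germ cell markers, 0 of 4, 0 of 5, 0 of 8 and 0 of 6 members passed. Over all genes 2.18% passed, so these counts do not speak to identity. Below 5 were 1 of 4, 1 of 5, 5 of 8 and 3 of 6 of them, and 3 of 6 immune and 3 of 4 adipocyte markers. Most skeletal muscle and endothelial markers measured were thus not below 5. The germ cell markers summed to 14.75 to 14.82 with siAHR-2 and 14.69 to 14.80 with siAHR-5, both below 15.00 to 15.06 with siCtrl. Sums this high mean that some germ cell marker was far above 5 in these cells.

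The siRNAs left Ahr at nearly the same level. Ahr stood at 13.34, 13.26 and 13.22 in the siCtrl libraries, at 11.97, 11.97 and 12.03 with siAHR-2 and at 11.95, 11.76 and 11.94 with siAHR-5. Both knockdown groups were thus far below siCtrl, by a log2FC of -1.29 (siAHR-2) and -1.39 (siAHR-5), and all siAHR-5 libraries were slightly below all siAHR-2 libraries. The direct log2FC was -0.11 (SE 0.0570, 95% interval -0.25 to 0.04, adjusted p = 0.211), which did not pass the test. Without replicate 2 of siAHR-5 it was -0.05.

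Cyp1b1 and Aldh3a1, which passed the cutoffs as falls with both siRNAs against siCtrl, reached nearly one level. All calls of siAHR-2 against siCtrl are from the fit without a replicate block, and with the block 0 genes passed in that comparison (adjusted p of at least 0.0126 in limma, 5030 genes under an unadjusted p of 0.05). Cyp1b1, a cytochrome P450 that oxidizes polycyclic hydrocarbons, stood at 13.37, 13.34 and 13.15 with siCtrl, at 12.32, 12.32 and 12.20 with siAHR-2 and at 12.38, 12.27 and 12.25 with siAHR-5. The siRNA groups overlapped, and the direct log2FC was 0.02 (95% interval -0.10 to 0.14, adjusted p = 0.793). Aldh3a1, an aldehyde dehydrogenase, went from 11.51, 11.61 and 11.60 with siCtrl to 10.11, 10.19 and 10.16 with siAHR-2 and 10.11, 9.92 and 9.83 with siAHR-5 (direct log2FC -0.20, 95% interval -0.39 to -0.0046, adjusted p = 0.100). For this gene as well the siRNA groups were close, replicate 1 of siAHR-5 lying just under the lowest siAHR-2 library.

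Ahrr and Nqo1 lay lower with siAHR-5, by less than the fold cutoff. Ahrr, the AHR repressor that competes for ARNT, stood at 12.79, 12.70 and 12.80 with siAHR-2 and at 12.41, 12.29 and 12.39 with siAHR-5, below 13.60, 13.57 and 13.51 with siCtrl (direct log2FC -0.40, SE 0.0444, adjusted p = 0.00157). Nqo1, a quinone reductase that NRF2 also induces, stood at 13.56, 13.55 and 13.57 with siAHR-2, 13.31, 13.32 and 13.31 with siAHR-5 and 14.01, 14.01 and 14.07 with siCtrl (direct log2FC -0.25, adjusted p = 2.47e-04). In both genes the order was siCtrl, siAHR-2, siAHR-5, with no overlap between neighbours.

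Ugt1a6 and Lpcat2 went the other way. Ugt1a6, which glucuronidates phenols, was lowest with siAHR-2 (8.47, 8.42 and 8.39), higher with siAHR-5 (8.84, 8.92 and 8.87) and highest with siCtrl (9.13, 9.10 and 8.99), and its direct log2FC of 0.45 (adjusted p = 0.00102) was below the fold cutoff. Lpcat2, an acyltransferase that makes platelet-activating factor, was the one member of the target list past both cutoffs. It stood at 10.30, 10.28 and 10.12 with siAHR-2, 10.58, 10.48 and 10.53 with siCtrl and 11.00, 11.05 and 11.03 with siAHR-5, so that siCtrl lay between the siRNAs (direct log2FC 0.79, SE 0.0561, adjusted p = 3.74e-04). Of all genes 2.18% passed the cutoffs in this comparison. Of 17 measured members of the target list, 1 passed (5.88%), and the list median was -0.01, beside 0.01 over all genes.

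**Figure D1:**
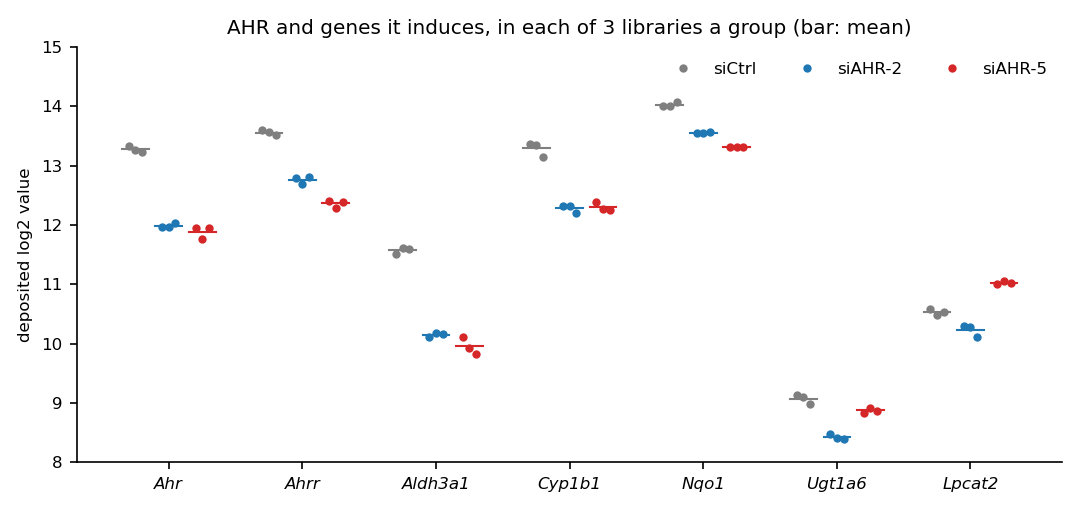
Deposited log2 values (y axis) of Ahr and 6 genes of the AHR target list in each library of siCtrl, siAHR-2 and siAHR-5 (points), with the group mean (bar). Ahr, Aldh3a1 and Cyp1b1 sit at nearly one level with both siRNAs, whereas Lpcat2 lies at 10.12 to 10.30 with siAHR-2 and at 11.00 to 11.05 with siAHR-5.

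The other target genes measured did not pass the cutoffs. Cyp1a1, the best known AHR target, was near the bottom of the scale in every library, at 3.58 to 3.65 with siAHR-2, 3.57 to 3.62 with siAHR-5 and 3.70 to 3.90 with siCtrl. The direct log2FC of Cdkn1b, Serpinb2, Nfe2l2, Hes1, Vav3, Slc7a5, Il6, Scin, Lrat and Ereg lay between -0.14 for Il6 and 0.20 for Cdkn1b. Of the AHR partners, 0 of 12 measured members passed the cutoffs in limma, with 2 higher and 3 lower at an FDR of 5%, beside 39.1% of all genes. Arnt, the DNA-binding partner, had a log2FC of 0.07 (adjusted p = 0.149), the chaperone Hsp90ab1 -0.09 and the coactivator Ncoa2 -0.17. Arnt2, a paralogue of Arnt, had the highest log2FC of the partners, 0.22 (adjusted p = 0.0156).

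Genes that passed the cutoffs with both siRNAs against siCtrl in one direction, without the replicate block, were read for the direct difference. These comparisons share the siCtrl libraries, so the number of such genes, 14, supports nothing by itself. Adh7, an alcohol dehydrogenase, fell by 0.60 with siAHR-2 and by 0.65 with siAHR-5, and the chemokine Cxcl16 rose by 0.64 and 0.69, with direct log2FC of -0.05 and 0.05. Mertk, a receptor kinase for the uptake of dead cells, rose by 0.70 and 0.96, and its direct log2FC of 0.26 had an adjusted p of 9.43e-04. Atcay, which encodes the neuronal protein caytaxin, was the one gene of the 14 past the cutoffs in the direct comparison. It rose in steps, from 7.91, 8.01 and 8.08 with siCtrl to 8.72, 8.68 and 8.61 with siAHR-2 and 9.64, 9.69 and 9.58 with siAHR-5 (direct log2FC 0.97, adjusted p = 1.66e-04). These genes were named after their values were seen.

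Over the whole table, Lpcat2 included, the siRNAs differed in 287 of 13188 genes (2.18%), 175 higher (1.33%) and 112 lower (0.849%) with siAHR-5. The groups had no overlap in any of the 287, as in 49.5% of all genes. Their median log2FC in size was 0.702, and 17 of the higher and 12 of the lower genes differed by a log2FC of at least 1. A further 2928 genes had an adjusted p of at most 0.01 with a smaller fold. Against siCtrl, 62 genes (0.47%) passed with siAHR-2 (0 with the replicate block), 21 higher (0.159%) and 41 lower (0.311%), and 306 (2.32%) with siAHR-5, 194 higher (1.47%) and 112 lower (0.849%). The balance of rises and falls with siAHR-5 against siCtrl moved with the scaling, to 127 higher and 126 lower after quantile normalization and to 140 higher and 165 lower after median centring. With an FDR of 5% and no fold cutoff, 5151 genes (39.1%) differed between the siRNAs, 3860 (29.3%) between siAHR-2 and siCtrl and 5169 (39.2%) between siAHR-5 and siCtrl. Leaving out each library in turn gave 258 to 280 genes in the direct comparison, 276 of them without replicate 2 of siAHR-5.

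Among the lower genes, Rad23b had the largest difference. Rad23b, a partner of XPC in nucleotide excision repair that also carries ubiquitinated proteins to the proteasome, stood at 16.23, 16.22 and 16.14 with siCtrl, at 15.75, 15.77 and 15.81 with siAHR-2 and at 14.06, 14.00 and 14.04 with siAHR-5. It was lower with siAHR-2 than with siCtrl by less than the fold cutoff, and far lower again with siAHR-5. The direct log2FC was -1.75 (SE 0.0241, 95% interval -1.81 to -1.69, adjusted p = 2.37e-05), a fold of 3.36.

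Fech and Tgfbr1 lay on opposite sides of siCtrl with the siRNAs. Fech, ferrochelatase, which puts iron into heme, stood at 12.45, 12.49 and 12.39 with siAHR-2, 11.89, 11.88 and 11.87 with siCtrl and 11.11, 11.21 and 11.19 with siAHR-5 (direct log2FC -1.27, adjusted p = 5.95e-05). Its siCtrl libraries lay between those of the siRNAs without overlap. Tgfbr1, the signalling kinase receptor for TGF-beta, stood at 13.57, 13.52 and 13.56 with siAHR-2, 13.35, 13.26 and 13.22 with siCtrl and 12.49, 12.33 and 12.48 with siAHR-5 (direct log2FC -1.11, adjusted p = 8.61e-05).

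In the remaining genes among the 12 largest falls, siAHR-2 lay at or close to siCtrl. Pole3, a small histone-fold subunit of DNA polymerase epsilon, stood at 13.63, 13.67 and 13.69 with siAHR-2, at 13.59, 13.61 and 13.65 with siCtrl and at 12.59, 12.57 and 12.65 with siAHR-5 (direct log2FC -1.06, adjusted p = 5.44e-05). Polr2d, a subunit of RNA polymerase II, stood at 12.72, 12.62 and 12.61 with siAHR-2 and 11.55, 11.59 and 11.52 with siAHR-5 (log2FC -1.10, adjusted p = 6.52e-05). The splicing factor Bud31 had a log2FC of -1.07, the RNA-binding protein Habp4 -1.24 and Itfg1 -1.21. Thada, Fam117b, Tceanc2 and a locus listed as LOC499331 had log2FC of -1.19, -1.05, -1.02 and -1.22. All of these had adjusted p of at most 0.01 in the limma fit.

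Among the genes higher with siAHR-5, Ptprv, a receptor-type tyrosine phosphatase, stood at 8.44, 8.56 and 8.75 with siAHR-2, 8.85, 9.08 and 8.67 with siCtrl and 9.88, 9.96 and 10.03 with siAHR-5 (direct log2FC 1.38, SE 0.0916, adjusted p = 3.19e-04). Here siCtrl overlapped siAHR-2, and siAHR-5 stood above both. Cdh3, P-cadherin, stood at 11.35, 11.24 and 11.38 with siAHR-2, 11.60, 11.61 and 11.61 with siCtrl and 12.64, 12.68 and 12.62 with siAHR-5 (log2FC 1.32, adjusted p = 6.25e-05).

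Gja1 and Aff4 showed the other arrangement, in which siAHR-2 was the group that left siCtrl. Gja1, which encodes the gap junction protein connexin 43, stood at 14.84, 14.75 and 14.78 with siCtrl, at 13.55, 13.66 and 13.59 with siAHR-2 and at 14.88, 14.87 and 14.87 with siAHR-5 (direct log2FC 1.27, SE 0.0301, adjusted p = 5.21e-05). Aff4, the scaffold of the super elongation complex, stood at 15.32, 15.24 and 15.13, at 14.33, 14.35 and 14.36 and at 15.49, 15.37 and 15.52 in the same order (direct log2FC 1.11, adjusted p = 6.52e-05). In both genes siAHR-5 was within a log2FC of 0.23 of siCtrl and did not pass the cutoffs against it.

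Among the rest of the 12 largest rises, Oasl and Syt17 had siCtrl near the middle. Oasl, an interferon-induced antiviral protein, stood at 7.93, 7.82 and 7.89 with siAHR-2, 8.75, 8.49 and 8.54 with siCtrl and 9.03, 9.03 and 9.12 with siAHR-5 (direct log2FC 1.18, adjusted p = 8.69e-05). Hmga2, a chromatin protein of growing mesenchymal cells, stood at 11.53, 11.43 and 11.38, 11.50, 11.41 and 11.18, and 12.49, 12.70 and 12.53 in that order of groups (direct log2FC 1.12, adjusted p = 2.68e-04), so that it stood out with siAHR-5 alone. The ferritin receptor Scara5 had a log2FC of 1.24, the mitochondrial carrier Slc25a23 1.22, the adhesion receptor Adgrb2 1.20, Syt17 1.13, the zinc finger factor Plagl2 1.07 and Rasgrp2, an activator of Rap1, 1.06.

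**Figure D2:**
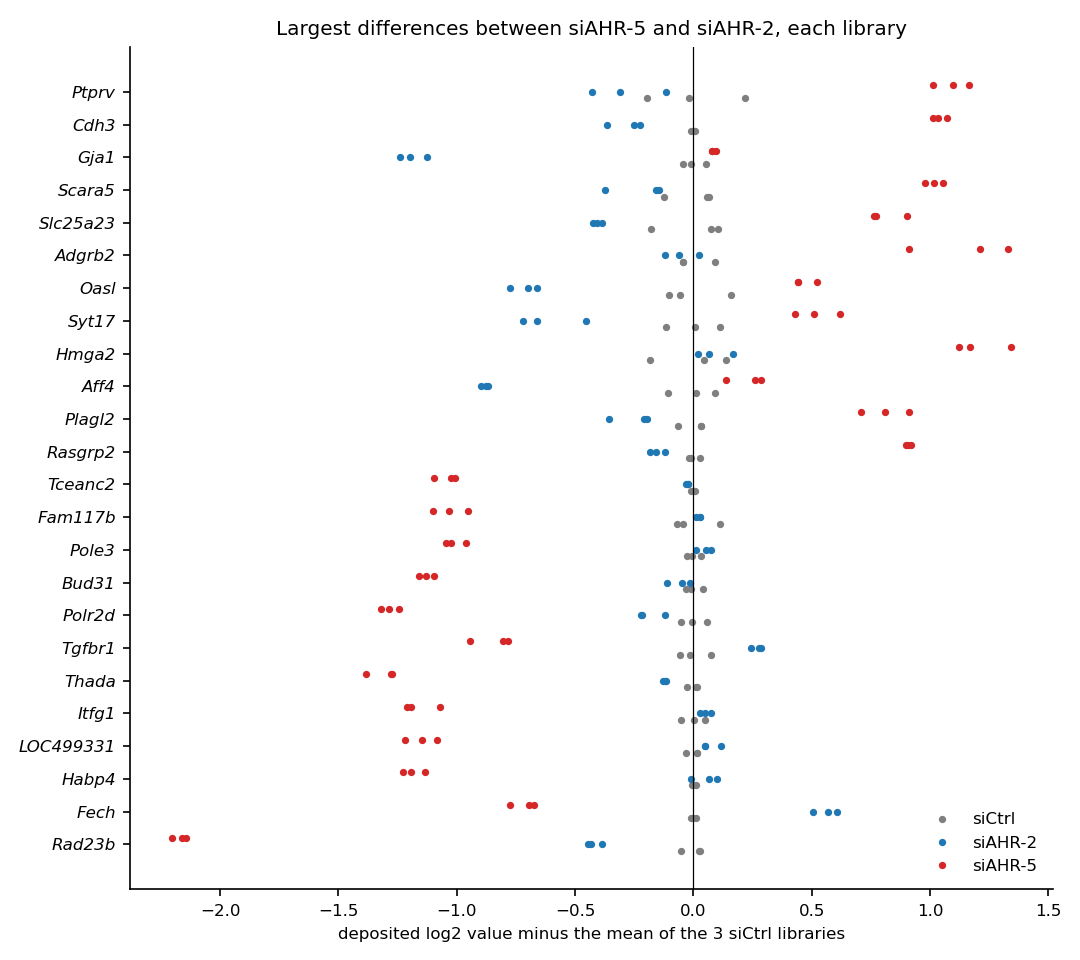
Each library's deposited log2 value minus the mean of the 3 siCtrl libraries (x axis) for the 12 genes highest and the 12 genes lowest with siAHR-5 against siAHR-2, by log2FC. Rad23b lies farthest from siCtrl with siAHR-5 (log2FC -2.17) and Gja1 farthest with siAHR-2 (-1.19), and some genes, such as Fech, Oasl and Tgfbr1, lie on opposite sides of siCtrl with the siRNAs.

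The AHR core motif, GCGTG, was counted in promoters on either strand, where CACGC is its other strand. RefSeq promoters of build GRCr8, which run from 250 bases before to 50 bases after the start of a gene, were matched to 10536 of the 13188 genes. The motif was found in 46.8% of all of these promoters, in 56 of 134 (41.8%) of genes higher and 47 of 93 (50.5%) of genes lower with siAHR-5, and in 4 of 10 (40.0%) of genes past the cutoffs in one direction with both siRNAs. A match describes the letters and is not a binding site. The promoters of Cyp1b1 and Ahrr, which fell with both siRNAs, are shown beside those of Rad23b and Ptprv, which led the falls and the rises between the siRNAs. Capitals mark the motif, which occurs 2, 3, 2 and 0 times.
Cyp1b1, chr6:21094315-21094614, plus strand: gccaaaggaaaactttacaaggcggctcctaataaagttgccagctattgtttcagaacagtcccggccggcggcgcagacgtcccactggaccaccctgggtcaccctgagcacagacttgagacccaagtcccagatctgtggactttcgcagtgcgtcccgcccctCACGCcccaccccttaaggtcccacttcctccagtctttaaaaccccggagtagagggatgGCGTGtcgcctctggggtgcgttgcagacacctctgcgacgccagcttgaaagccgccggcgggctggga
Ahrr, chr1:30821969-30822268, plus strand: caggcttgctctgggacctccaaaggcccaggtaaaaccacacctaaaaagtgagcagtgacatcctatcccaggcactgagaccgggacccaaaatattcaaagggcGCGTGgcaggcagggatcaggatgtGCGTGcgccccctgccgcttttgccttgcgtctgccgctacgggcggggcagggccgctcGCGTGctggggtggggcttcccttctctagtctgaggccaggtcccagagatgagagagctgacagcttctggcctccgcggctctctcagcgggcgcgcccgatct
Rad23b, chr5:74885268-74885567, plus strand: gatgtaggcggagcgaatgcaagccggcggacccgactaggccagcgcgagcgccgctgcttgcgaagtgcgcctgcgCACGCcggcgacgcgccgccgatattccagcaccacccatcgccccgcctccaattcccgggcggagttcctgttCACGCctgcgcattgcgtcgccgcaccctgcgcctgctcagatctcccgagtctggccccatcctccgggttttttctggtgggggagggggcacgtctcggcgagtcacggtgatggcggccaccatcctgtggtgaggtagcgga
Ptprv, chr13:49120072-49120371, minus strand: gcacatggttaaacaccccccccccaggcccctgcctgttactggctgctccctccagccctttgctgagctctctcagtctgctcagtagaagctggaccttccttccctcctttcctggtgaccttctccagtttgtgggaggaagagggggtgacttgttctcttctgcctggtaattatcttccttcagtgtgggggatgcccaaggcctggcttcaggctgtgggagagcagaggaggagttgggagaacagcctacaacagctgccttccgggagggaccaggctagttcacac

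The place of siCtrl between the siRNAs was then described for all 287 genes. On the line from the siAHR-2 mean to the siAHR-5 mean, siCtrl was called near an siRNA within a 3rd of the way from it and beyond it outside the line. Of the 175 higher genes, siCtrl lay near siAHR-2 in 65 (37.1%), beyond siAHR-2 in 40 (22.9%), between in 41 (23.4%), near siAHR-5 in 22 (12.6%) and beyond siAHR-5 in 7 (4%). For the 112 lower genes these were 51 (45.5%), 38 (33.9%), 19 (17%), 4 (3.57%) and 0. The siCtrl libraries did not overlap siAHR-5 in 272 of the 287 genes, as in 50.5% of all genes, and did not overlap siAHR-2 in 186, as in 43.3% of all genes. As the siAHR libraries chose the genes, these are descriptions.

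**Figure D3:**
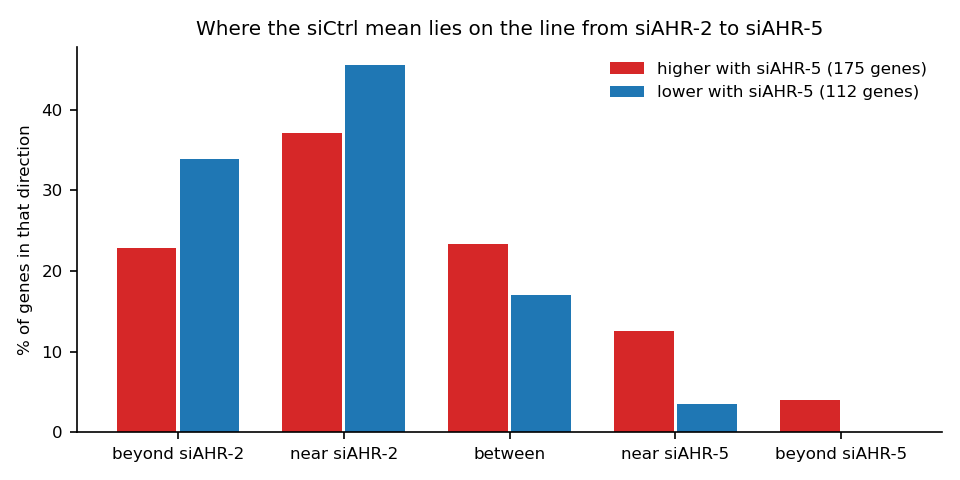
Share of genes (y axis, % of the genes in that direction) by where the siCtrl mean lies on the line from the siAHR-2 mean to the siAHR-5 mean, for genes higher (red) and lower (blue) with siAHR-5. In both directions the tallest bar is siCtrl near siAHR-2, 37.1% and 45.5%.

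Read by the tests against siCtrl, 75 of the 175 higher genes passed as rises with siAHR-5 and not with siAHR-2, 20 passed as falls with siAHR-2 and not with siAHR-5, Atcay rose with both and 79 passed in neither. Of the 112 lower genes, 70 passed as falls with siAHR-5, 1 passed as a rise with siAHR-2 and 41 passed in neither. That one gene was Akr1c14, an aldo-keto reductase of steroid metabolism, with a log2FC against siCtrl of 0.62 with siAHR-2 and -0.12 with siAHR-5. The 20 genes that fell with siAHR-2 alone were Loxl2, Gja1, Insig1, Ccdc51, Aff4, Map1b, Uvrag, Cep76, Oasl, Pcolce, Polr3g, Pxk, Serpinh1, Fndc3b, Ccdc8, G3bp2, Rprd1a, Rwdd4, Syt17 and Chac1, named after their values were seen. With the replicate number as a block, none of these 20 falls passed (adjusted p of at least 0.0126 in limma), at the same fold changes, since each number stands once in each group.

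Of these, Loxl2, Gja1 and Insig1 had the largest falls with siAHR-2. Loxl2, a lysyl oxidase that crosslinks collagen, stood at 14.87, 14.89 and 14.71 with siCtrl, 13.56, 13.61 and 13.56 with siAHR-2 and 14.63, 14.64 and 14.61 with siAHR-5 (direct log2FC 1.05, SE 0.0198, adjusted p = 3.39e-05). Insig1, which holds SREBP in the endoplasmic reticulum, stood at 14.33, 14.22 and 14.16, 13.22, 13.28 and 13.26, and 14.05, 13.85 and 13.98 in that order (direct log2FC 0.70, adjusted p = 4.33e-04). Serpinh1, the collagen chaperone, and Pcolce, which enhances procollagen cleavage, fell by 0.66 and 0.71 with siAHR-2 against siCtrl, beside a log2FC of -0.07 and 0.00 with siAHR-5.

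**Figure D4:**
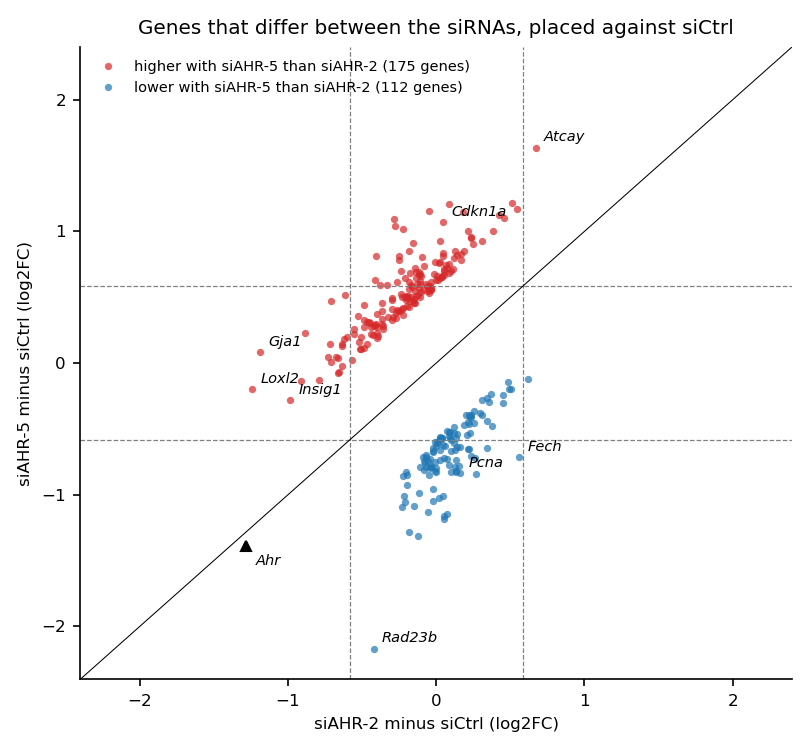
log2FC against siCtrl with siAHR-2 (x axis) and with siAHR-5 (y axis) for the 175 genes higher and the 112 genes lower with siAHR-5, and for Ahr (triangle). Dashed lines mark the fold cutoff and the solid line equal change. The rule that chose the points keeps them off the solid line. Rad23b lies lowest, Gja1, Loxl2 and Insig1 lie to the left at little change with siAHR-5, and Ahr is on the line.

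Gene lists were read by counts and medians, beside 2.18% of all genes past the cutoffs and a median log2FC of 0.01. No list was tested as a set. Among 34 measured matrix proteases and their regulators, 6 were higher and 0 lower (17.6%), with a list median of 0.15. Adam19, a membrane metalloprotease, stood at 13.50, 13.48 and 13.50 with siAHR-2, 13.56, 13.38 and 13.41 with siCtrl and 14.29, 14.29 and 14.28 with siAHR-5 (log2FC 0.79, adjusted p = 3.20e-05). The urokinase receptor Plaur and Mmp19 were each higher by 0.71, and Plat and Mmp2 were also higher. Plaur and Mmp19 had siCtrl between the siRNAs. Their log2FC against siCtrl with siAHR-2 and siAHR-5 were -0.41 and 0.30 (Plaur) and -0.21 and 0.50 (Mmp19). Without replicate 1 of siAHR-5, 3 members passed, and Mmp19 then missed the p cutoff (adjusted p = 0.0102), as it did without replicate 1 or 3 of siAHR-2. With the replicate block Mmp19 missed it as well (adjusted p = 0.0149 in limma).

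Collagen and matrix genes had 5 of 47 members higher and 1 lower (12.8%, median 0.16). Beside Loxl2, Col18a1 was higher by 0.78, Loxl4 by 0.67 and Sparc, a collagen-binding glycoprotein, by 0.65, with Thbs1 the fifth, and the laminin chain Lama4 was lower by 0.63. The fibrillar collagen Col1a1 had a log2FC of 0.35, below the fold cutoff. Of 34 integrins and cadherins, Cdh3 and Itga11, a collagen receptor (log2FC 0.82), were higher and 0 lower. Among 47 TGF-beta and BMP genes, Ltbp1, which holds latent TGF-beta in the matrix, was higher by 0.70, and Tgfbr1 was lower. Of 11 fibroblast markers, Thy1 and Pdgfrb passed as higher (0.67 and 0.64), with a list median of 0.00. At an FDR of 5%, 3 members were higher and 2 lower. The summed level of the 11 was lower with siAHR-5 (log2 19.96 to 19.97) than with siAHR-2 (19.99 to 20.03), without overlap, and both were below siCtrl (20.23 to 20.25). Of 34 contractile and SRF target genes 0 passed the cutoffs in limma, with 11 higher and 6 lower at an FDR of 5%, beside 39.1% of all genes. Of 19 YAP targets Gadd45b (0.73) passed the cutoffs, and 14 were higher and 0 lower at an FDR of 5% (median 0.12).

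Of 50 cytokine and NF-kB genes, 5 were higher and 0 lower (10%, median 0.09). Ccl2, a monocyte chemokine, stood at 9.81, 9.76 and 9.70 with siAHR-2, 9.55, 9.70 and 9.38 with siCtrl and 10.51, 10.47 and 10.66 with siAHR-5 (log2FC 0.79, adjusted p = 4.94e-04). Cxcl1, Cxcl10 and the oncostatin M receptor Osmr were higher by 0.76, 0.82 and 0.64, and Csf1 was the fifth. Unlike Ccl2, these 3 genes had siCtrl between the siRNAs. Their log2FC against siCtrl with siAHR-2 and siAHR-5 were -0.45 and 0.31 (Cxcl1), -0.56 and 0.26 (Cxcl10) and -0.23 and 0.41 (Osmr). Of 46 interferon response genes, 4 were higher and 0 lower (8.7%, median 0.12): Oasl, Cxcl10, and the guanylate-binding proteins Gbp5 (0.68) and Gbp2 (0.61). Gbp2 was below the fold cutoff without replicate 1 of siAHR-5 (0.58). Cd14, a receptor for lipopolysaccharide, was just past the cutoffs (log2FC 0.59, adjusted p = 0.00244) and was below the fold cutoff after quantile normalization (0.53), after median centring (0.56), and without replicate 1 of siAHR-5 (0.54) or replicate 1 (0.54) or 3 (0.57) of siAHR-2. With the replicate block Cd14 missed the p cutoff (adjusted p = 0.0143 in limma). Ptprc, the leukocyte marker, stood at 2.84 and 2.85 with the siRNAs.

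AP-1 and immediate early genes had the highest list median, 0.21, with 4 of 42 members higher and 0 lower (9.52%). Zfp36, which binds and destabilizes cytokine mRNAs, stood at 12.47, 12.61 and 12.52 with siAHR-2, 12.78, 12.88 and 12.93 with siCtrl and 13.34, 13.51 and 13.53 with siAHR-5 (log2FC 0.93, adjusted p = 3.39e-04). The AP-1 subunits Junb and Fosl1 were higher by 0.74 and 0.72, and Klf2 by 0.66. For Klf2, replicate 2 of siAHR-5 was the highest library (15.02, beside 14.66 and 14.77), and without it the log2FC was 0.56, below the cutoff. The count for the list was 2 without replicate 1 or 3 of siAHR-2 or replicate 3 of siAHR-5, when Junb and Klf2 missed the p cutoff, and Klf2 also missed it without replicate 2 of siAHR-2.

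Of 52 DNA replication genes, 2 were lower and 0 higher (3.85%), and the list median, -0.15, was the lowest of the lists. With the fold cutoff dropped and an FDR of 5%, 32 members were lower and 3 higher, beside 2242 lower and 2909 higher among all genes. Pcna, the sliding clamp of DNA polymerases, stood at 15.53, 15.53 and 15.56 with siAHR-2, 15.35, 15.38 and 15.41 with siCtrl and 14.60, 14.50 and 14.52 with siAHR-5 (log2FC -0.999, SE 0.0299, adjusted p = 5.44e-05). The groups did not overlap, and siAHR-5 was the one farther from siCtrl.

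Cdkn1a, the CDK inhibitor p21 and a p53 target, stood at 11.20, 11.19 and 11.22 with siAHR-2, 11.07, 11.20 and 11.21 with siCtrl and 12.20, 12.22 and 12.28 with siAHR-5 (log2FC 1.03, SE 0.0293, adjusted p = 5.44e-05). It was the one member of 28 p53 targets past the cutoffs (3.57%, median 0.15). At an FDR of 5% without a fold cutoff, 16 p53 targets were higher and 3 lower, beside 2909 higher and 2242 lower among all genes. Among 22 G1 genes, Ccnd2 and Cdk6, a cyclin and a kinase of G1, were also higher with siAHR-5 than with siAHR-2 (0.75 and 0.61). With Cdkn1a this made 3 of 22 in all (13.6%, median 0.01). Set against siCtrl, Ccnd2 had a log2FC of -0.19 with siAHR-2 and 0.56 with siAHR-5. For Cdk6 these were -0.47 and 0.15, so that siAHR-2 was the group farther from siCtrl. Without replicate 3 of siAHR-5, Cdk6 was below the fold cutoff (0.57), and with the replicate block it missed the p cutoff (adjusted p = 0.0123 in limma). Of 49 mitotic genes 0 passed the cutoffs in limma, with a median of -0.03 and, at an FDR of 5%, 16 lower and 8 higher. Of 30 BCL2 family genes 0 passed, with 2 lower and 14 higher at that FDR, which 39.1% of all genes met.

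Of 38 ATF4 and unfolded protein response genes, 4 were higher and 1 lower (13.2%), while the list median was 0.01. Chac1, which degrades glutathione, stood at 11.22, 11.23 and 11.20 with siAHR-2, 11.79, 11.77 and 11.89 with siCtrl and 11.95, 11.97 and 12.13 with siAHR-5 (log2FC 0.80, adjusted p = 3.16e-04). The cystine transporter subunit Slc7a11, the pseudokinase Trib3 and the stress factor Ddit3 were higher by 0.78, 0.65 and 0.63. Shmt2, mitochondrial serine hydroxymethyltransferase, was lower, at 14.96, 14.99 and 14.97 with siAHR-2, 14.49, 14.56 and 14.51 with siCtrl and 14.24, 14.32 and 14.28 with siAHR-5 (log2FC -0.69, adjusted p = 6.52e-05).

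In serine, folate and nucleotide synthesis, 3 of 41 members were lower and 0 higher (7.32%, median -0.14), among them Shmt2 and the purine salvage enzyme Hprt1 (log2FC -0.68). At an FDR of 5% without a fold cutoff, 27 were lower and 5 higher, beside 2242 lower and 2909 higher among all genes. Of 41 genes of amino acid and polyamine metabolism, 3 were higher and 2 lower (12.2%). The glycine transporter Slc6a9 was higher by 0.86 and the lysosomal arginine sensor Slc38a9 by 0.67, together with Slc7a11, and the transaminases Got1 and Gpt2 were lower by 0.84 and 0.65. Of 52 NRF2 and glutathione genes, 1 was higher, Slc7a11 (0.78), and 2 lower (5.77%, median 0.01). Txnrd1, thioredoxin reductase, was lower (14.76, 14.78 and 14.71 with siAHR-2, 13.89, 13.87 and 13.90 with siAHR-5, 14.98, 14.96 and 14.99 with siCtrl, log2FC -0.86, adjusted p = 5.21e-05). The peroxidase Prdx2 was lower by 0.62.

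Of 74 ribosome biogenesis factors, Ltv1 and Nip7, which act in the maturation of the small and the large subunit, were lower by 0.88 and 0.68 and 0 were higher (2.7%, median -0.10). With an FDR of 5% and no fold cutoff, 36 were lower and 3 higher, beside 2242 lower and 2909 higher (39.1%) among all genes. Ltv1 stood at 13.25, 13.21 and 13.29 with siAHR-2, 13.33, 13.36 and 13.39 with siCtrl and 12.34, 12.31 and 12.45 with siAHR-5. Of 45 translation factors, Eef1d, a subunit of the elongation factor exchange complex, was lower by 0.62 and 0 were higher (2.22%, median -0.10). At an FDR of 5% without a fold cutoff, 22 of them were lower and 5 higher. The MYC network had 1 of 19 members past the cutoffs and the WNT pathway 1 of 69, in each case Ruvbl1, a helicase of chromatin remodelling complexes (log2FC -0.65, adjusted p = 8.22e-05).

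Lipid genes and the remaining lists held few members past the cutoffs. Scap, the escort that carries SREBP out of the endoplasmic reticulum, stood at 14.58, 14.54 and 14.51 with siAHR-2, 14.40, 14.45 and 14.39 with siCtrl and 13.57, 13.63 and 13.57 with siAHR-5 (log2FC -0.96, adjusted p = 5.21e-05), and Insig1 was higher, for 2 of 34 cholesterol genes (5.88%, median -0.10). In the list for mitochondrial fatty acid oxidation, Acadm was lower by 0.64 and Cpt1c higher by 0.62. Cpt1c was below the fold cutoff without replicate 2 of siAHR-2 or of siAHR-5 (both 0.57). With the replicate block Cpt1c missed the p cutoff (adjusted p = 0.0122 in limma). Uvrag was the 1 autophagy and lysosome gene of 65 that passed (0.77), Dbp the 1 clock gene of 19 (0.71) and Numbl the 1 Notch gene of 28 (0.62, and 0.57 without replicate 2 of siAHR-5). Growth factor receptors and ligands had 3 of 60 higher, Epha2 (0.69), Hbegf (0.64) and Pdgfrb. Axon guidance genes had Epha2 and Plxna3 (0.62, and 0.57 without replicate 1 of siAHR-5) of 51. Plxna3 missed the p cutoff with the replicate block (adjusted p = 0.0106 in limma). HIF targets had 1 of 25 higher (4%). In fatty acid synthesis, glycolysis and iron handling, 0 of 29, 0 of 30 and 0 of 18 passed the cutoffs in limma, with 11, 15 and 7 higher and 6, 4 and 3 lower at an FDR of 5%, beside 39.1% of all genes. For glycolysis, 1 member passed with all 12 libraries of the set in one fit, after median centring, or with genes kept at a mean of at least 5.

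Of 12 measured members of the small RNA machinery, 0 passed the cutoffs in limma (median 0.06), with 5 higher and 4 lower at an FDR of 5%, beside 39.1% of all genes. Ago2, the Argonaute that cleaves, had a log2FC of 0.18 (adjusted p = 0.00798), and Tnrc6b, a scaffold of the silencing complex, had the highest, 0.42 (adjusted p = 0.00149), both below the fold cutoff. When each siRNA was set against siCtrl, 1 of the 12 passed with siAHR-5 and 0 with siAHR-2, beside 2.32% and 0.47% of all genes.

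**Figure D5:**
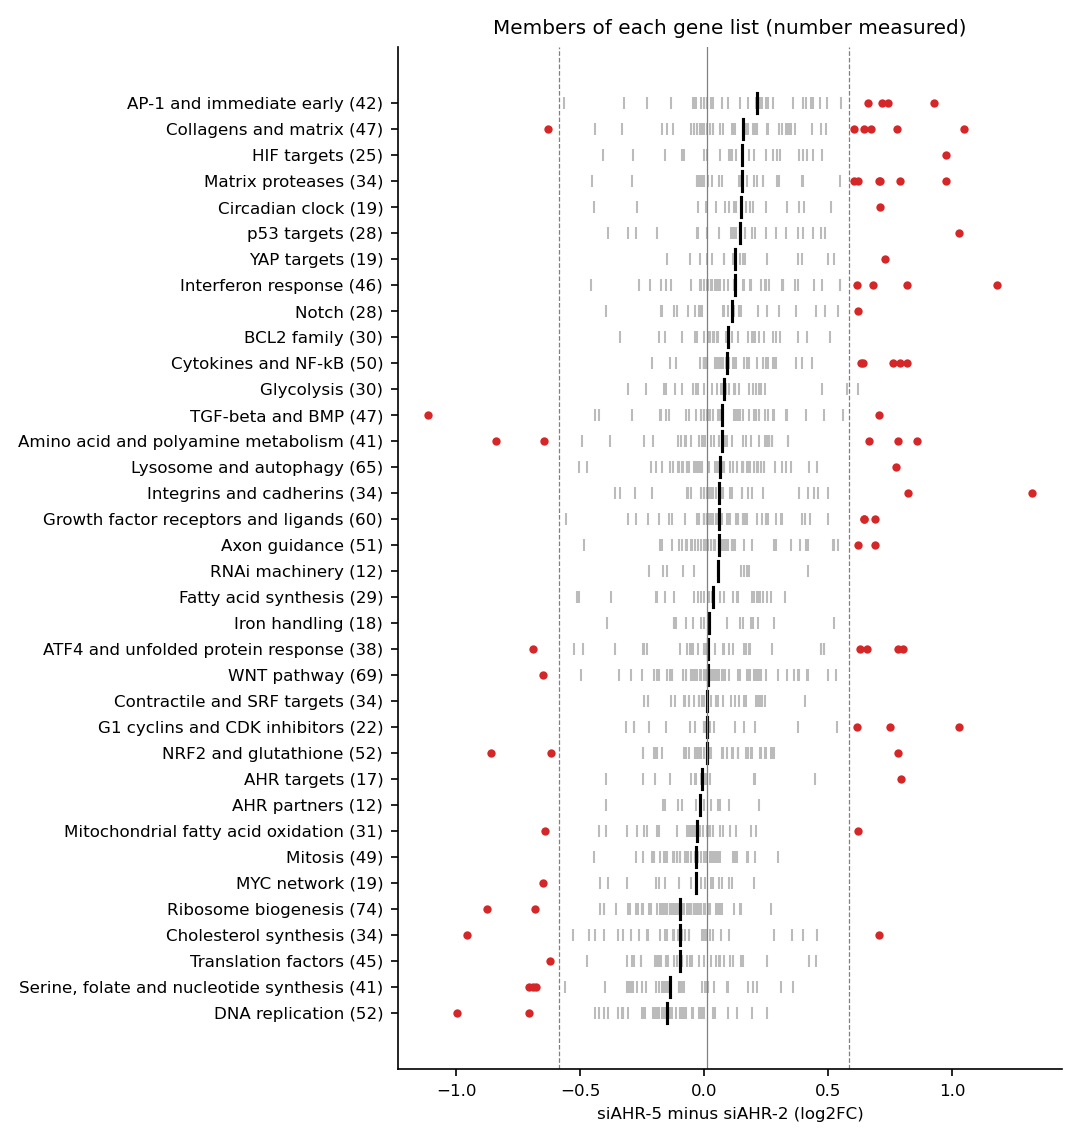
log2FC of siAHR-5 against siAHR-2 (x axis) for every measured member of each gene list (ticks), with members past the cutoffs as red points, the list median as a black bar, the median of all genes as a grey line and the fold cutoff as dashed lines. The list medians run from -0.15 (DNA replication) to 0.21 (AP-1 and immediate early), and the red points of the matrix protease and cytokine lists all lie to the right.

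The genes that differed between the siRNAs were also looked up for MYC, in 6 other libraries of the series that had been normalized on a scale of their own. There, myc-/- cells expressing MYC were compared with myc-/- cells given siCtrl, so that MYC and transfection change together and cannot be told apart. Of all genes, 3537 (26.8%) passed, of which those higher with MYC made up 12.5% and those lower 14.3%, and 10051 (76.2%) with an FDR of 5% and no fold cutoff. Of the 175 genes higher with siAHR-5, 74 (42.3%) were lower with MYC and 34 (19.4%) higher. Of the 112 genes lower with siAHR-5, 25 (22.3%) were higher with MYC and 10 (8.93%) lower. Cdkn1a (-2.33), Ccl2 (-2.29) and Ptprv (-3.69) were among the genes higher with siAHR-5 that were lower with MYC, while Cdh3 (1.11) and Slc25a23 (3.09) were higher with it. Genes past a fold cutoff were not matched to other genes in level, and these shares are a description.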

How the data were processed

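RNA of 18 libraries was sequenced (poly-A selection, NEBNext Ultra), and 9 of these are used directly here, 3 per siRNA. Per the labels and the study's methods, the authors aligned reads to rn6 with HISAT2 2.1.0, removed genes with fewer than 10 reads in total, normalized with DESeq2 and deposited log2 values of 13188 genes. The read counter and annotation are not given in the sources used here, and neither is the transformation, so that fold changes of genes with low values may be too small. Set against each other were only libraries on one scale. Tests used limma 3.58.1 in R 4.3.3 (lmFit, eBayes with a mean-variance trend) on 3 against 3 libraries, with Benjamini-Hochberg adjustment over all genes. Named were the 12 largest rises and falls without overlap and with a mean of at least 1, all AHR partners and targets, and up to 4 members past the cutoffs per gene list. Others were named after their values were seen. The comparison, the lists and the tests were chosen with earlier results of these data known. Of 31 symbols of mitochondrial transcripts looked for, 0 were found among the genes, so RNA quality could not be read from them. Promoters were matched by symbol (9842) or synonym (694). Figures used matplotlib 3.10.9 in Python 3.11.15. As alternatives, other cutoffs, all libraries of the set in one fit, no trend, quantile normalization, median centring, a mean of at least 5, a pseudocount of 1, a replicate block and leaving out each library were tried. Some members of the gene lists are not reported here by name.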

Additional observations from a re-analysis of the deposited data

How the results depend on the processing

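Of the alternatives, the cutoff moved the counts most. With an FDR of 5% and no fold cutoff, 5151 genes differed between the siRNAs, 3860 between siAHR-2 and siCtrl, 5169 between siAHR-5 and siCtrl and 10051 with MYC. Leaving out each library in turn gave 258 to 280, 52 to 64, 274 to 297 and 3518 to 3567 genes, and an Ahr log2FC between -0.14 and -0.05. In all other alternatives run, the direct comparison gave 266 to 294 genes. Quantile normalization gave 273, of which 262 were shared with the 287, and 55.3% were higher beside 61.0%. For siAHR-5 against siCtrl it gave 127 higher and 126 lower in place of 194 and 112, and median centring gave 140 and 165. Same-numbered libraries of siAHR-5 and siAHR-2 had deviations correlated at -0.01, 0.14 and 0.15 over 10727 genes, and 4 of 6 libraries correlated best with their own number. These values do not settle whether the numbers pair the libraries. The main fits took them as unpaired. Such correlations were not computed with the siCtrl libraries. With the replicate number as a block, 266 genes differed between the siRNAs, 265 of them shared, and 0 between siAHR-2 and siCtrl, where limma gave adjusted p of at least 0.0126, with 5030 genes under an unadjusted p of 0.05, and the cause was not tested. Under the block Cdk6, Mmp19, Plxna3, Cpt1c and Cd14 missed the p cutoff, with adjusted p of 0.0123, 0.0149, 0.0106, 0.0122 and 0.0143. The Ahr log2FC stayed negative and did not pass in any alternative run, and no named gene changed direction past the cutoffs. Depth is unknown, so low genes such as Cyp1a1 and Arnt2 cannot be given a limit.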
